A study of Mus musculus with 6 samples.

Results

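The SLAM family is a set of receptors on the surface of blood cells, and its members were followed here in mouse inguinal fat together with SAP, the adaptor protein through which most of them signal. They were Slamf1, Slamf6, Slamf7, Slamf8, Slamf9, Cd48, Cd84, Ly9, Cd244 and Sh2d1a, the gene of SAP. The 10 genes were matched by the gene name of each array probe, which gave 14 of the 55681 probes on the array. Slamf6, Cd48, Cd84 and Ly9 had 2 probes each, called probe 1 (the brighter) and probe 2 below, and the other 6 genes had a single probe. The family was chosen by the higher Slamf6 level on the DIO_CR_WR arrays in this same comparison, so the differences between the groups are given as descriptions of these arrays and support nothing further.

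Inguinal fat is a depot under the skin. RNA was taken from male C57BL/6J mice and measured on 6 Agilent 1-colour arrays, 3 titled DIO and 3 titled DIO_CR_WR. DIO_CR_WR mice ate a high fat diet (60% of energy from fat) for 1 month from the age of 2 months. They were then calorie restricted for about 3 weeks, until their weight equalled that of chow-fed mice of the same age, and regained weight on the fatty diet. The mice titled DIO ate chow until then and met the fatty diet only in that last period, which both groups shared. The protocol uses DIO for the regaining mice and calls the others controls; group names here are those of the titles. The labelled ages rise by 1 month from sample to sample, from 6 to 8 months in DIO and from 9 to 11 months in DIO_CR_WR, although the protocol speaks of mice of equal age. No label says whether a sample came from a single mouse, so every error below measures the spread between samples, which may be technical in part.

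SLAM receptors belong to the immunoglobulin superfamily. Most of them bind a copy of themselves on a neighbouring cell, while CD244 binds CD48, which is held in the membrane by a lipid anchor and has no tail inside the cell. The tails of SLAMF1, SLAMF6, CD84, LY9 and CD244 carry short tyrosine motifs, known as immunoreceptor tyrosine-based switch motifs. When phosphorylated, these motifs bind SAP, which brings in the kinase FYN, or, where SAP is lacking, phosphatases. This switch is known for its part in the development of natural killer T cells, in the help that follicular helper T cells give to B cells, and in killing by natural killer (NK) cells. SLAMF8 and SLAMF9 have short tails without the motif and are known mainly from macrophages and dendritic cells.

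The array reads each gene through oligonucleotides of 60 bases, and for 2 of the 14 member probes that oligonucleotide lies on the switch motif itself. They are printed because they show the part of the receptor tail that SAP binds. Capitals mark the 18 bases that hold the motif's codon pattern (threonine, any residue, tyrosine, any pair of residues, then valine or isoleucine).
Slamf6 probe 1: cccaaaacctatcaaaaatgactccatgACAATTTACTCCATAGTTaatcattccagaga
Ly9 probe 1: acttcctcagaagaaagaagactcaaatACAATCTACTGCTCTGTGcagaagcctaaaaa
The pattern also occurs by its letters in 0.848% of all probes on the array, in any reading frame. Slamf6 probe 1 was at chr1:173871767-173871826 on the plus strand of build mm9, and Ly9 probe 1 at chr1:173523555-173523614 on the minus strand. In the array files Slamf6 probe 1 is listed for 2 Ensembl transcripts and Slamf6 probe 2, at chr1:173873620-173873679, for 1 of them, so a transcript that ends early would be read by probe 1 alone.

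The values below are scaled log2 levels, that is the log2 of a spot's processed intensity minus the log2 of the 75th percentile of its array. A level of 0 equals that percentile, and levels of different probes cannot be set against each other. Sums of levels over a marker list, given below, are therefore weighted towards its brightest probes and do not measure cell content. Differences are DIO_CR_WR minus DIO from limma's linear model over all probes, with the standard error (SE) of the fit, on 3 arrays a group. Testing was limited to probes that the scanner software marked as well above background on 3 or more of the 6 arrays, which left 38786 probes, among them 13 of the 14 member probes. The 75th percentile itself ran from 4605 to 4991 intensity units in DIO and from 6050 to 7126 in DIO_CR_WR. The share of probes well above background was 68.2% to 79.2% in DIO and 51.6% to 65.7% in DIO_CR_WR. Negative control spots, which match no mouse gene, had a median scaled log2 level of −8.69, −9.4 and −9.36 in DIO replicates 1 to 3 and of −6.38, −7.74 and −8.22 in the DIO_CR_WR replicates, a difference of 1.7. DIO replicate 1 shared slide 1 with all DIO_CR_WR arrays, and DIO replicates 2 and 3 were on slide 2, each slide having its own scan. All 6 listed adipocyte markers were tested, with a mean scaled log2 level of 3.81 to 4.13 in DIO and 3.55 to 4.02 in DIO_CR_WR.

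Across the family, 12 of the 13 tested probes lay above 0 and Cd244 lay below. The median difference of the 13 was 0.84, against −0.19 for all tested probes, and 34.5% of all tested probes lay above 0. No member passed over all probes: limma with Benjamini-Hochberg adjustment called 0 of 38786 probes (0%), and the adjusted p of the members ran from 0.119 to 0.697. At an unadjusted p under 0.05, 7 member probes were higher and 1 was lower, where 5.32% of all tested probes were higher and 20.8% lower. The 3 arrays of each group did not overlap for 7 member probes that were higher and for Cd244, which was lower, where the groups did not overlap for 7.23% of all tested probes that were higher and 25.4% that were lower. Scaling by spike-ins moved the median of all tested probes to 0.27 and quantile normalization to −0.07, and no member changed sign under either. Since the choice of the family used this contrast, nothing is read from these counts. In whole tissue, more cells of a type cannot be told apart from more RNA per cell.

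**Figure D1:**
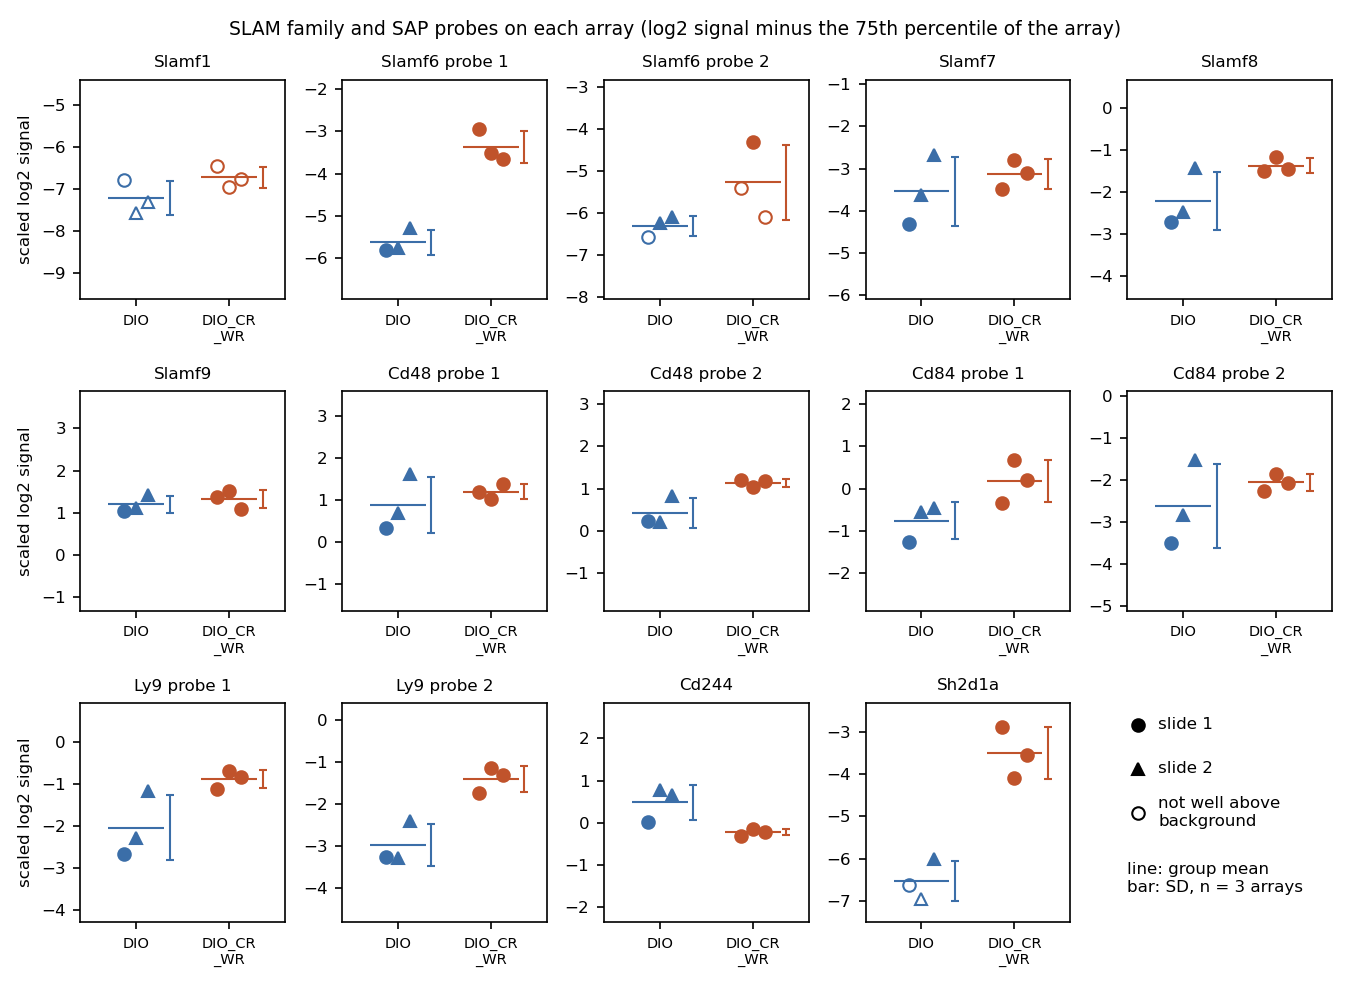
Scaled log2 level of each of the 14 probes on each array, with DIO in blue and DIO_CR_WR in orange, every panel spanning the same log2 range. Lines are group means, bars the SD over 3 arrays, circles slide 1, triangles slide 2, and open symbols spots not well above background. Slamf6 probe 1 and Sh2d1a show the widest gaps between the groups, and all 6 Slamf1 spots are open.

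Slamf6 (NM_030710, also called Ly108) is a self-binding receptor of T, B and NK cells. Its probe 1 read 88.3, 86.4 and 117 intensity units in DIO replicates 1 to 3 and 930, 598 and 484 in the DIO_CR_WR replicates. On the scaled log2 scale these were −5.82, −5.77 and −5.30 in DIO against −2.94, −3.52 and −3.64 in DIO_CR_WR. Every DIO_CR_WR array lay above every DIO array, and all 6 spots were well above background. The group means were −5.63 ± 0.29 and −3.37 ± 0.38 (SD, n = 3 arrays each), a difference of 2.26 ± 0.26 SE, or 4.8-fold. That difference chose the family and carries no test.

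The margin of Slamf6 over the dimmest usable signal differed between the groups. The lowest signal flagged as well above background was 57.4, 31.5 and 29.3 units in DIO replicates 1 to 3 and 369, 143 and 90.3 in the DIO_CR_WR replicates. With all scaled values raised to at least −4.27, the highest of these limits on the scaled log2 scale, the 3 DIO arrays sat at the limit, the 3 DIO_CR_WR arrays above it, and the Slamf6 difference was 0.91. With background corrected by another method (normexp, with quantile normalization) it was 1.83. What part the brighter background of the DIO_CR_WR arrays had in the difference was not tested.

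Slamf6 probe 2 gave a smaller and less even difference. It read 52.4, 62.6 and 67 units in DIO replicates 1 to 3 and 167, 345 and 88.5 in the DIO_CR_WR replicates, with scaled log2 levels of −6.57, −6.24 and −6.10 against −5.41, −4.32 and −6.09. The groups did not overlap, but DIO_CR_WR replicate 3 lay 0.01 above DIO replicate 3. Only 2 DIO spots and 1 DIO_CR_WR spot were well above background. The difference was 1.03 ± 0.44 SE (95% interval −0.04 to 2.1), 0.55 without DIO_CR_WR replicate 2 and 0 at the common limit of −4.27. Over the 6 arrays the Pearson correlation of both Slamf6 probes was 0.70, on the same RNA and arrays.

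Sh2d1a encodes SAP, the SH2-domain adaptor on which signalling by most SLAM receptors turns, and is the only member outside chromosome 1. Its probe lay at chrX:39875116-39875175 and read 50.6, 38.2 and 71.6 units in DIO replicates 1 to 3 and 977, 400 and 519 in the DIO_CR_WR replicates. The scaled log2 levels were −6.62, −6.95 and −6.01 in DIO and −2.87, −4.10 and −3.54 in DIO_CR_WR, with no overlap. The measured difference was 3.02 ± 0.38 SE (adjusted p = 0.119 in limma). Its signal was well above background on 3 DIO_CR_WR arrays and on DIO replicate 3 alone among the DIO arrays. Sh2d1a thus passed the filter through the group in which it was higher, so no fold is given and nothing is read from its p. At the common limit of −4.27 the difference was 0.77, below the 1.58 and 1.16 of Ly9, the 0.94 of Cd84 probe 1 and the 0.91 of Slamf6 probe 1 there, and with normexp and quantile normalization 2.14. Without each array in turn it ran from 2.71 to 3.32, and the Slamf6 probe 1 difference from 2.05 to 2.43.

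Ly9 (CD229), a self-binding receptor of T and B cells, was brighter in DIO_CR_WR by both probes. Probe 1 stood at −2.66, −2.29 and −1.17 in DIO replicates 1 to 3 and at −1.12, −0.70 and −0.83 in the DIO_CR_WR replicates (scaled log2), a difference of 1.16 ± 0.39 SE. Probe 2 stood at −3.26, −3.27 and −2.40 against −1.74, −1.14 and −1.32, a difference of 1.58 ± 0.30 SE. All spots of both probes were well above background and the groups did not overlap in either, although DIO replicate 3 came within 0.05 of the lowest DIO_CR_WR array for probe 1. The Pearson correlation of these probes over the 6 arrays was 0.95, the highest of the 4 genes with 2 probes.

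Cd84 (SLAMF5), a self-binding receptor of B cells, T cells, platelets and myeloid cells, gave different pictures by its probes. Probe 1, which crosses a splice junction at chr1:173816502-173818732, stood at −1.26, −0.56 and −0.45 in DIO and at −0.34, 0.67 and 0.20 in DIO_CR_WR (scaled log2). The difference was 0.94 ± 0.33 SE with no overlap. Probe 2, at chr1:173820027-173820086, stood at −3.49, −2.84 and −1.52 against −2.26, −1.86 and −2.07, so that DIO replicate 3 lay above all DIO_CR_WR arrays. Its difference was 0.56 ± 0.48 SE, with a 95% interval of −0.61 to 1.72. In the files probe 1 is listed for 3 Ensembl transcripts and probe 2 for 1.

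Cd48 encodes the lipid-anchored ligand of CD244 and is carried by most leukocytes. Its probe 1 overlapped between the groups, with 0.34, 0.68 and 1.61 in DIO against 1.19, 1.02 and 1.38 in DIO_CR_WR (scaled log2), and differed by 0.32 ± 0.34 SE. Probe 2 read 0.23, 0.21 and 0.82 against 1.19, 1.03 and 1.18, with no overlap and a difference of 0.71 ± 0.21 SE. Both probes placed DIO replicate 3 highest among the DIO arrays. The correlation of these probes over the 6 arrays was 0.77.

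Cd244 (2B4, now named Cd244a), the receptor for CD48 on NK cells and some T cells, was the only tested member below 0. Its probe, at chr1:173515388-173515447, read 5049, 8135 and 7326 units in DIO replicates 1 to 3 and 5781, 6193 and 5223 in the DIO_CR_WR replicates. After scaling these were 0.02, 0.78 and 0.67 against −0.30, −0.15 and −0.21 (scaled log2), with no overlap but with DIO replicate 1 close to the DIO_CR_WR arrays. The difference was −0.71 ± 0.24 SE (adjusted p = 0.146 in limma), which shrank to −0.24 in the fit blocked on slide and to −0.25 under spike-in scaling. The median of all tested probes was −0.10 and 0.27 in those settings, and with the slide block the gap of Cd244 to that median was smaller than its SE of 0.18. Without block or covariate, Cd48 lay above 0 by both probes and Cd244 below, in the same RNA. The Cd48 probe 1 difference of 0.32 was smaller than its SE of 0.34. With age as a covariate Cd48 probe 1 was −0.77, probe 2 0.28 and Cd244 −1.27.

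Slamf7 (CRACC), a self-binding receptor of NK cells and plasma cells that uses the SAP relative EAT-2, overlapped between the groups. It stood at −4.31, −3.62 and −2.68 in DIO and −3.49, −2.79 and −3.11 in DIO_CR_WR (scaled log2). The difference was 0.41 ± 0.43 SE, with a 95% interval of −0.62 to 1.43, an interval that spans 0.

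Slamf8 and Slamf9, the short-tailed myeloid members, differed little or unevenly. Slamf8 stood at −2.71, −2.49 and −1.44 in DIO and −1.49, −1.18 and −1.46 in DIO_CR_WR (scaled log2), a difference of 0.84 ± 0.35 SE in which DIO replicate 3 lay among the DIO_CR_WR arrays. Slamf9 stood at 1.04, 1.12 and 1.43 against 1.38, 1.51 and 1.09, a difference of 0.13 ± 0.19 SE (95% interval −0.34 to 0.59). Slamf1 (CD150), a receptor of T cells, B cells and blood stem cells, was not well above background on any of the 6 arrays. It read 24.8 to 45.2 units in DIO and 55.4 to 81.4 in DIO_CR_WR, and no difference is given for it.

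**Figure D2:**
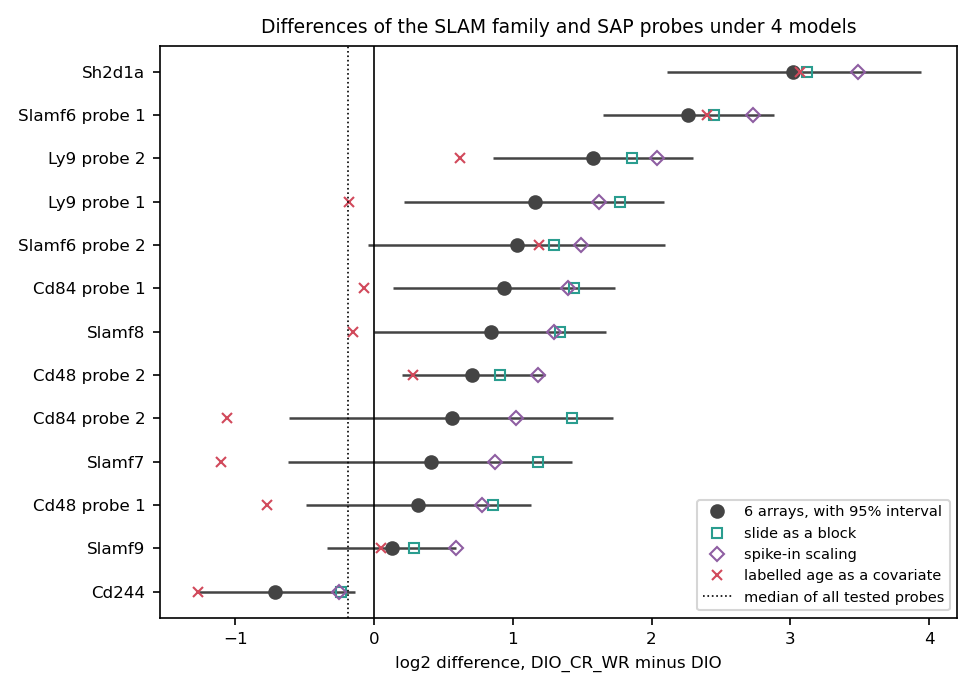
Difference in scaled log2 level, DIO_CR_WR minus DIO, for the 13 tested probes, with the 95% interval of the fit on 6 arrays and the value with the slide as a block, with spike-in scaling and with labelled age in the model. The dotted line is the median of all tested probes, −0.19. Sh2d1a and Slamf6 probe 1 lie above 2 in the 4 models drawn. In settings not drawn, Slamf6 probe 1 was 0.91 and Sh2d1a 0.77 at the common limit. With normexp and quantile normalization they were 1.83 and 2.14. In the models drawn, Cd244 stays below 0, and 6 probes fall below 0 with the age covariate only. Labelled ages do not overlap between the groups.

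The arrays of the DIO group were themselves uneven for this family. DIO replicate 3 was the highest DIO array for 12 of the 13 tested probes and DIO replicate 1 the lowest for 10. Over all probes DIO replicate 3 was the highest DIO array for 43.7% and DIO replicate 1 the lowest for 57.5%. Leaving out DIO replicate 1 gave differences of 0.02 for Slamf7, 0.05 for Cd48 probe 1 and 0.12 for Cd84 probe 2, and leaving out DIO replicate 3 gave 0.84, 0.69 and 1.11. The summed level of the T cell markers had the same order, with 3.91, 6.18 and 8.57 on DIO arrays 1 to 3 (in multiples of the 75th percentile), and was 4.74 to 5.9 in DIO_CR_WR. That order was not particular to T cell markers. Adipocyte markers summed to 96.2, 106 and 117 on DIO arrays 1 to 3, and macrophage and monocyte markers to 31.2, 38.9 and 51.6. The plasma cell and dendritic cell sums did not have it. Thy1, which stromal cells also make, gave the largest term of the T cell sum and differed by −0.43 ± 0.31 SE. Cd3d, part of the CD3 complex of T cells, stood at −3.96, −4.22 and −2.77 in DIO and −1.31, −2.42 and −2.15 in DIO_CR_WR (scaled log2), so the sum does not show its difference of 1.69 ± 0.46 SE. Of the 10 T cell markers, 7 lay above 0. Cd28 differed by −0.94 ± 0.25 SE with no overlap, Cd4 by −0.10 ± 0.27 SE and Cd5 by 0.05 ± 0.31 SE. The part of the T cell markers in the members' levels was not tested.

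The slide could be weighed only through DIO replicate 1. With the slide as a block, which compares the 3 DIO_CR_WR arrays with that single DIO array, Slamf6 probe 1 differed by 2.45, Sh2d1a by 3.12, Ly9 by 1.77 and 1.86, Cd84 by 1.44 and 1.43, Slamf8 by 1.34 and Slamf7 by 1.18. For Cd48 probe 1 it gave 0.86 against 0.32 without the block, and for Slamf9 0.29 against 0.13. These members all stood higher with the block, which follows from the low level of that array. DIO replicate 1 lay below the mean of DIO replicates 2 and 3 for each of them (−1.16 for Slamf7, −0.81 for Cd48 probe 1). An effect of the slide and the spread among the DIO arrays cannot be told apart here. With the labelled age as a covariate, Slamf6 probe 1 stood at 2.40 ± 0.57 SE and Sh2d1a at 3.07 ± 0.86 SE. Slamf7 (−1.1 ± 0.63 SE), Slamf8 (−0.15 ± 0.62 SE) and Cd48 probe 1 (−0.77 ± 0.54 SE) turned below 0. So did Cd84 probes 1 and 2 (−0.07 ± 0.56 and −1.06 ± 0.77 SE) and Ly9 probe 1 (−0.18 ± 0.59 SE). The labelled age follows the order of the samples and does not overlap between the groups, so this fit cannot settle whether any member depends on age.

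SLAM genes lie side by side. On build mm9 the probes of Cd244, Ly9, Slamf7, Cd48, Slamf1, Cd84 and Slamf6 followed each other within 358 kb of chromosome 1 (173515388 to 173873679), and those of Slamf9 and Slamf8 lay 535 and 638 kb further on. Between Cd244 and Slamf8 the array gave 23 other gene names, and 21 of the 23 were tested. Some of these names are bare probe identifiers and may not stand for separate genes. A single other gene name, Gm10521, lay within the 358 kb, and it was not above background on any array. The neighbours' median difference was −0.11 (0.35 with spike-in scaling and 0.07 with quantile normalization), and 1 gene was higher and 3 were lower at an unadjusted p below 0.05 (5.29% and 21% of all genes by their brightest probe) and 0 past the adjusted threshold in limma. The higher gene was Ncstn, a subunit of gamma-secretase (1.64 ± 0.28 SE, and 0.5 at the common limit of −4.27). Among the lower ones were Casq1, a calcium-binding protein of muscle (−1.14 ± 0.20 SE), and Kcnj9, a potassium channel (−0.88 ± 0.31 SE).

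**Figure D3:**
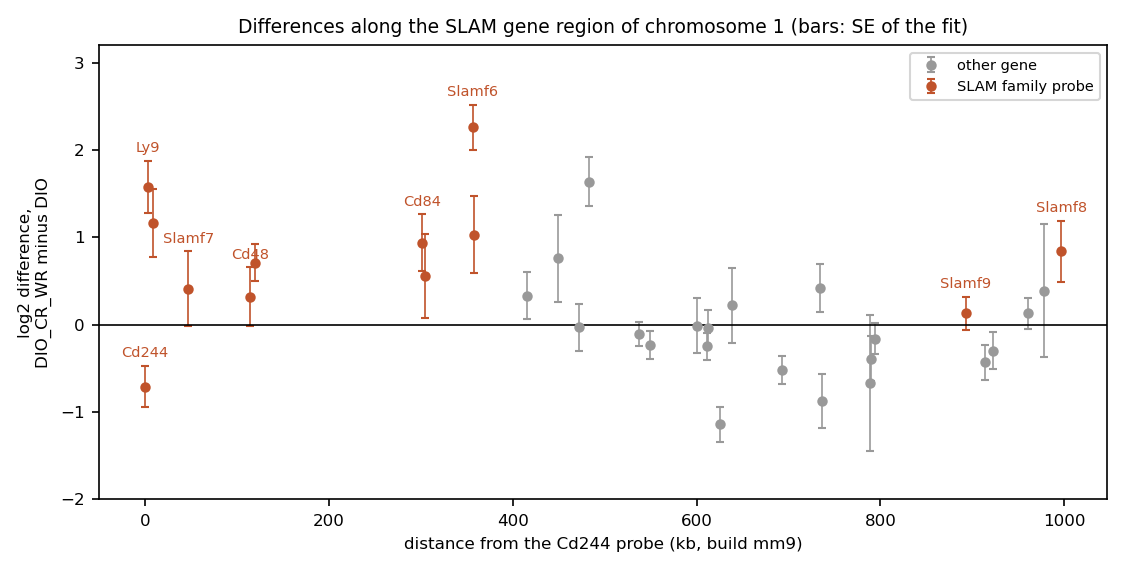
Difference in scaled log2 level, DIO_CR_WR minus DIO, against distance along chromosome 1 from the Cd244 probe in kb, with the SE of the fit as bars. SLAM family probes are orange and the 21 other tested gene names grey. Cd244 at −0.71 and Ly9 at 1.16 and 1.58 lie next to each other at the left end, and Slamf6 probe 1 at 2.26 is the highest point.

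RefSeq promoter sequences (GRCm38.p6) were at hand for 8 of the 10 members. The 250 bases before the start are printed for Slamf6, whose level chose the family, and for Cd84, which lies next to it, with capitals for the motif found.
Slamf6, chr1:171917212-171917461, plus strand: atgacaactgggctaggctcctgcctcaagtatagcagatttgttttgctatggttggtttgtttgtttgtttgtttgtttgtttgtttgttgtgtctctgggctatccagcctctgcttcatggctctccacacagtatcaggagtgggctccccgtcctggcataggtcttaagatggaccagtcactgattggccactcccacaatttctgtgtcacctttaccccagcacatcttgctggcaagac
Cd84, chr1:171839447-171839696, plus strand: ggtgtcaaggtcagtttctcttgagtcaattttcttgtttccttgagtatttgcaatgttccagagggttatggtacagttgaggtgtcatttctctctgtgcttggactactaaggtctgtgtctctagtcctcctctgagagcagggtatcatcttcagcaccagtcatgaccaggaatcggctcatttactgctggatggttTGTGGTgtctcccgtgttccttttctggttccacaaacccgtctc
The letters searched, on both strands, were TGTGGT of RUNX factors, GAGGAA of PU.1 and CAGGTG of E proteins, all known regulators of blood cell genes. Cd84 held a single TGTGGT and Slamf6 none of the 3. Over the 8 members 2 held TGTGGT, 1 GAGGAA and 1 CAGGTG, where 14%, 23.3% and 17.2% of the 32851 promoters in the table held them in a window of this length.

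Downstream of the receptors, 19 adaptor, kinase and phosphatase genes of SLAM signalling, with the CD48-binding receptor Cd2, were measured and all 19 were tested. At an unadjusted p under 0.05, 5 were higher and 1 lower (5.29% and 21% of all genes by their brightest probe), 0 passed over all probes in limma, and the median difference was 0.37. Inpp5d, the lipid phosphatase SHIP-1 that docks on SLAM tails without SAP, stood at −0.41, −1.71 and −1.51 in DIO and 0.39, 0.39 and 0.34 in DIO_CR_WR (scaled log2). Its difference was 1.58 ± 0.35 SE, or 0.78 once slide was blocked. Ptpn6, the phosphatase SHP-1, stood at 0.02, 0.41 and 0.31 against 1.13, 1.23 and 1.00, a difference of 0.87 ± 0.17 SE with no overlap. Prkcq, a protein kinase C of T cells that is also made in muscle, was the lower gene, at 1.27, 1.42 and 0.81 against 0.39, −0.46 and 0.52, a difference of −1.01 ± 0.31 SE. The kinase Fyn, SAP's partner, differed by 0.38 ± 0.18 SE, and the EAT-2 gene Sh2d1b1 by 0.74 ± 0.29 SE.

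Of 11 genes of natural killer T and follicular helper T cells, 10 were tested, and Il21 was not above background on any array. At an unadjusted p under 0.05, 4 were higher and 1 lower (5.29% and 21% of all genes by their brightest probe) and 0 passed over all probes in limma. The median difference was 1.14, but 0.23 at the common limit of −4.27, 0.16 with age in the model and 0.69 without DIO replicate 1. Among those with the smallest p, Cxcr6, a homing receptor of natural killer T and memory T cells, differed by 1.28 ± 0.36 SE and the checkpoint receptor Pdcd1 by 1.44 ± 0.41 SE. Interferon gamma (Ifng), which these cells release, differed by 1.93 ± 0.29 SE, and by 0.24 at the common limit of −4.27. Zbtb16, the factor that sets the natural killer T cell programme, differed by −0.20 ± 0.18 SE, and the follicular helper factor Bcl6 by −0.60 ± 0.19 SE. Both are also expressed outside lymphocytes.

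Marker lists of the cells that carry these receptors are given beside the members. At an unadjusted p under 0.05 (5.29% of all genes higher and 21% lower), the 10 T cell markers held 4 higher genes and 1 lower gene around a median of 0.56, and the 8 NK cell markers 4 higher and 0 lower around a median of 1.06. With age in the model these medians were 0 and 0.01, and at the common limit 0.17 and 0.43. The plasma cell list held 4 tested genes, with 1 higher, Igj, the joining chain of secreted antibodies, at 3.09 ± 1.08 SE, and a median of 0.19. The B cell median was 0 over 5 tested markers of 7, with 1 higher and 1 lower. The medians were 0.35 for 8 macrophage and monocyte markers (2 higher, 0 lower) and 0.25 for 6 dendritic cell markers (3 higher, 1 lower). For 6 markers of all leukocytes the median was 0.40 (1 higher, 0 lower). For 6 adipocyte markers (0 higher, 1 lower) it was −0.21, turning to 0.25 with spike-in scaling and 0.15 with quantile normalization. With age in the model the macrophage, dendritic cell and leukocyte medians turned to −0.22, −0.42 and −0.55, and without DIO replicate 1 they were 0.18, 0.05 and 0.07. In limma 0 genes of any list passed over all probes. NK cell markers summed to 1.15 to 1.58 times the 75th percentile in DIO and 1.64 to 1.89 in DIO_CR_WR, and leukocyte markers to 12.9 to 25.7 and 20.2 to 23.6. Gzma and Prf1 gave the largest terms of the NK cell sum. Gzma differed by 0.91 ± 0.36 SE with overlap between the groups (−0.06 with age in the model), and Prf1 by −0.24 ± 0.19 SE. Of the 8 NK cell markers 7 lay above 0, all but Prf1, where 34.5% of all tested probes lay above 0. For stroma of the lymph node that lies in this depot, 3 of 5 markers were tested and went different ways. The chemokine Ccl19 differed by 0.86 ± 0.15 SE, Chst4 by −1.04 ± 0.19 SE, both without overlap, and Madcam1 by −0.19 ± 0.49 SE, and they summed to 1.16 to 1.31 in DIO and 1.44 to 1.61 in DIO_CR_WR. Their part in the members' differences was not tested.

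**Figure D4:**
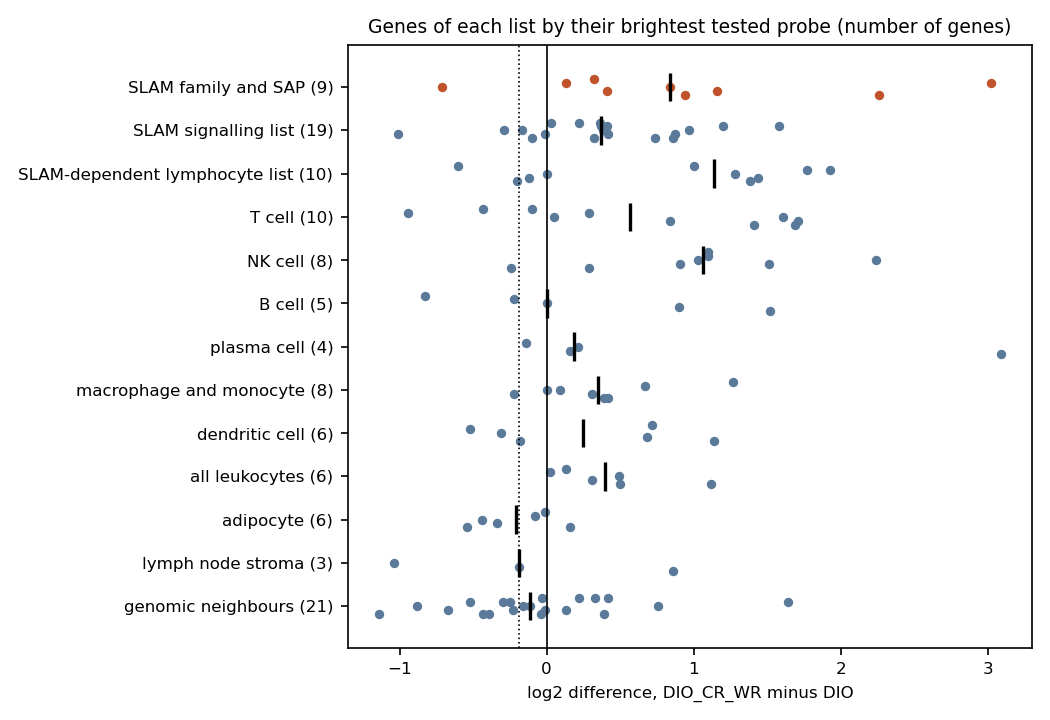
Difference in scaled log2 level, DIO_CR_WR minus DIO, of each gene by its brightest tested probe (points), with the median of each list as a black bar and the number of genes tested in brackets. The dotted line is the median of all tested probes, −0.19. The points of most lists lie on both sides of 0, and the plasma cell gene Igj is at 3.09.

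Levels were set against Slamf6 probe 1 over the 6 arrays, for tested probes with a value on every array. Clone names, Gm numbers, Rik names, accessions and similar names were left out. The genes that then followed it most closely were Klra10 (Pearson r = 0.998), Klra9 (0.995), Stom (0.994), Osbpl3 (0.993) and Pdgfrb (0.992). The arrays fall into the same groups in each case, so these values are a description. Klra10 stood at −4.90, −4.98 and −4.59 in DIO and −3.32, −3.66 and −3.67 in DIO_CR_WR (scaled log2). Klra genes are near-identical copies, and their probes may read more than 1 of them.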

How the data were processed

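Expression was measured in 6 inguinal fat samples on arrays of design 028005, with Cy3 cRNA from 0.5 µg of RNA per the labels. The authors deposited processed spot intensities, made with Feature Extraction 10.7.3.1 per the file headers (10.7.1.1 per the submitters' processing notes), with spatial and multiplicative detrending within each array switched on. A table of the whole series with 18 value columns was not used, as those names match no sample title.

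Control spots (3671) and spots the software marked as outliers were left out before averaging the log2 values of each probe. No member spot was missing. Groups were compared with limma 3.58.1 in R 4.3.3, two-sided, adjusted over all 38786 tested probes. The code was tested on simulated data. Alternatives changed scaling, background, filter, probe summary, variance model, block, covariate, or left out each array. A common floor was added after seeing the data. Members, lists and tests were chosen with earlier results of these data known. The genes named are all members and up to 3 genes of a list with the smallest p. Also named are the 5 genes correlating best with Slamf6 probe 1 among those with a standard symbol and a value on every array. Fyn, Sh2d1b1, Thy1, Zbtb16, Bcl6, Cd4, Cd5, Gzma, Prf1 and 3 neighbours were named after their values were seen. Some genes of the lists are not reported here by name. The number of arrays limits precision.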

Additional observations from a re-analysis of the deposited data

How the results depend on the processing

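Of 250 alternative values of member differences, 239 neither reversed nor changed their side of the threshold (Slamf6 probe 2 was 0, with no direction, at the common floor), 5 came below an adjusted p of 0.05 in limma, and 6 reversed, all with the labelled age as a covariate: Slamf7 −1.1, Slamf8 −0.15, Cd48 probe 1 −0.77, Cd84 probes 1 and 2 −0.07 and −1.06, and Ly9 probe 1 −0.18. The 5 were Slamf6 probe 1 with signal on all 6 arrays (2.26) and, without DIO replicate 1, where slide and group cannot be told apart, Slamf6 probe 1 (2.17), Ly9 probe 2 (1.44), Cd244 (−0.95) and Sh2d1a (2.98). Nothing is read from this for Slamf6, which chose the family, and whose probe 1 had a leave-one-out range of 2.05 to 2.43. Nor is anything read from it for Sh2d1a, which passed the filter through the group in which it was higher. The 6 reversed values had an SE of 0.54 to 0.77, in a fit where the labelled ages of the groups do not overlap. Probes passing the adjusted threshold numbered 0 as reported, 6 with spike-in scaling, 48 with signal on all 6 arrays, 137 with the common floor, and 0 to 5385 without each array, the highest without DIO replicate 1. Probes at an unadjusted p under 0.05 numbered 10111 (2062 higher, 8049 lower), 3905 with the slide as a block, 3728 on slide 1 alone, and 4540 to 14005 without each array (4540 without DIO replicate 2, 6546 and 6470 without DIO_CR_WR replicates 1 and 2). With spike-in scaling 7180 were higher and 1323 lower, without the filter 7826 and 6371, and with quantile normalization 2672 and 5273. Of the 13 tested member probes, 8 were at an unadjusted p under 0.05, 3 with age, 4 with the common floor and 12 with spike-in scaling. Of all 38786 tested probes, 10111, 9211, 8198 and 8503 were in those settings. By gene means 5 of 9 member genes and 6933 of 26327 genes were. Without each array the numbers were 4 to 10 member probes and 4540 to 14005 of all probes. With replicate number as a block 7 member probes and 8876 probes in all were at an unadjusted p under 0.05. Arrays of the same number correlated at 0, −0.13 and −0.21 in their deviations from group means. These values gave no sign of pairing by number, but 3 arrays a group cannot exclude it. Signal over background limits Slamf1, Slamf6 probe 2 and the DIO level of Sh2d1a.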
